A study of Mus musculus with 6 samples.

Results

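The genes described here are 37 mouse genes of glucose breakdown and of the oxygen-sensing pathway, chosen by symbol. They are 24 genes of glucose uptake, glycolysis and the fate of lactate and pyruvate, and 13 regulators or inducible targets of hypoxia-inducible factors (HIF). The choice was made with earlier results of these data known. Each symbol matched a gene in the deposited tables, which list 55487 genes, and all 37 had enough reads to be tested. They were measured by stranded mRNA sequencing in cultured knee cartilage chondrocytes, the cells that make cartilage matrix, of mice labelled C57B/6. In 3 libraries, called M-LPS-EV, the medium held vesicles, membrane-bound particles that cells release, of macrophages first exposed to LPS, the endotoxin of Gram-negative bacteria. In the other 3, called M-EV, the vesicles came from macrophages given no LPS. All cultures received 10 µg/ml of vesicle protein for 24 h, and each difference is one between cultures given the different vesicles. The vesicle type cannot be told apart from other differences between the vesicle preparations or the cultures. The study asked whether vesicles of inflammatory macrophages start an inflammatory form of cell death, non-canonical pyroptosis, in chondrocytes and the loss of cartilage in osteoarthritis. Cells without vesicles were not analysed here, and the sources used here do not give the origin of the macrophages, the LPS dose or whether replicates were separate cultures. A p-value here therefore measures no more than how far these libraries scatter, and that scatter may be technical.

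Glycolysis splits glucose into pyruvate in a preparatory phase that spends ATP and a payoff phase that returns it, and lactate dehydrogenase then turns pyruvate into lactate for export. HIF transcription factors are made continuously and marked for destruction by prolyl hydroxylases that need oxygen, and when oxygen is short, or the hydroxylases are inhibited, HIF accumulates and raises many glycolytic genes. Cartilage has no blood vessels, and its chondrocytes live at low oxygen and obtain most of their ATP from glycolysis.

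Cells given M-LPS-EV had more RNA of most of these genes. Of the 37, 31 were called higher and none lower than with M-EV, at an adjusted p under 0.05 in edgeR's quasi-likelihood test with Benjamini-Hochberg adjustment over 14604 tested genes, where 16.4% of all genes were called higher and 15.2% lower. The median log2 fold change of M-LPS-EV over M-EV was 0.474 for the 37 genes and 0.003 for all genes tested. Among the 24 glycolysis genes 19 were higher with a median of 0.463, and among the 13 HIF and hypoxia genes 12 were higher with a median of 0.719. A rise of at least 0.5 on the log2 scale was called for 18 of the 37 and for 5.12% of all genes. Against a change of at least 1.2-fold, 17 of the 24 and 10 of the 13 were higher, and 5.20% of all genes. Counts scaled to library size (CPM) did not overlap between the groups, with M-LPS-EV above, for 32 of the 37 and for 21.5% of all genes.

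Most of these genes are abundant, and abundant genes are called more often. Of the 37, 26 had a mean count of at least 1000, and 25 of those were higher; among all genes with that mean count 21.0% were higher and 27.4% lower. The lowest count of any of the 37 in an M-EV library was 28, so none entered the test through its M-LPS-EV counts alone. The plot of fold changes by role shows the 6 genes that were not called, which were Pfkm, Pfkfb4, Aldoc, Eno2, Ldhb and Ankrd37.

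**Figure D1:**
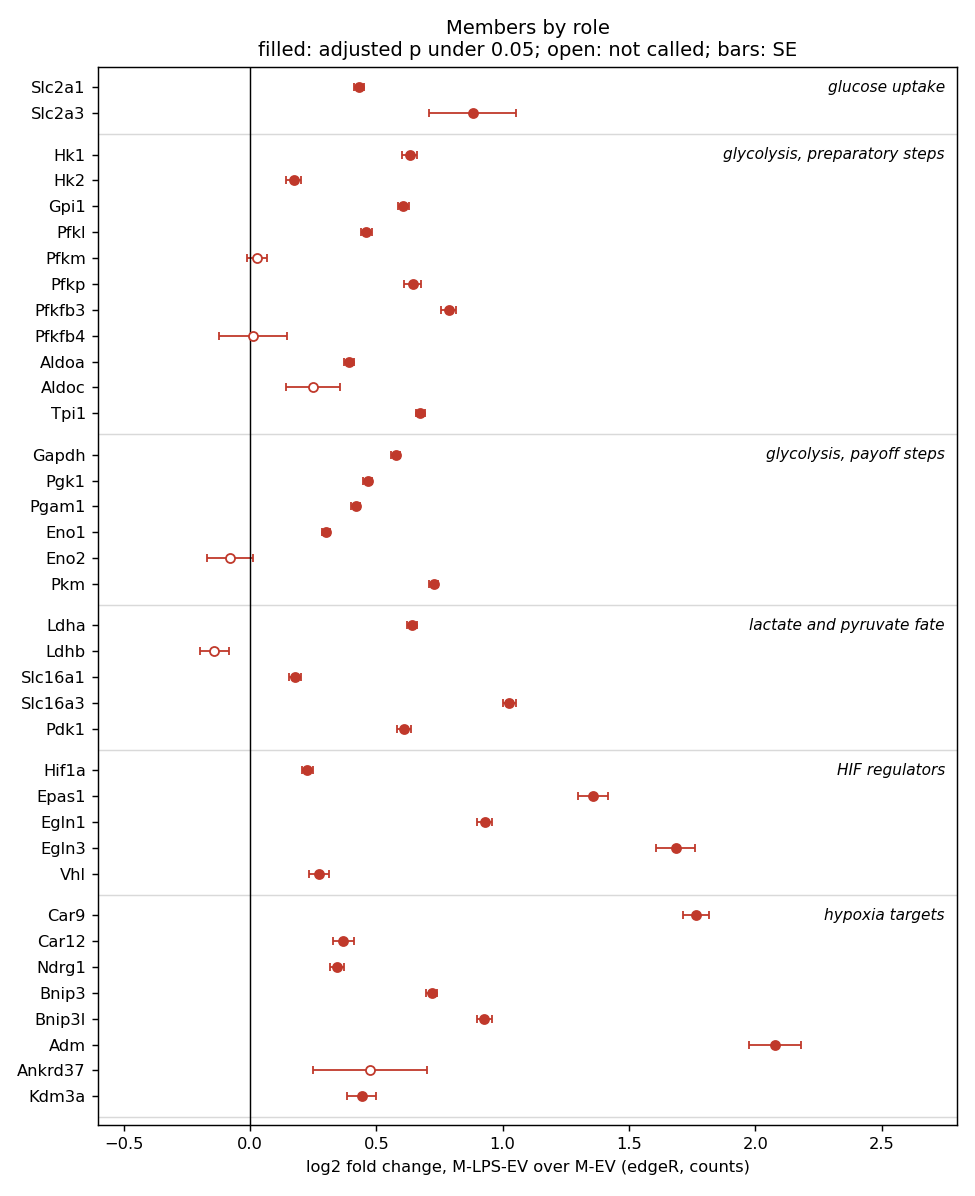
Log2 fold change of M-LPS-EV over M-EV with its standard error for the 37 genes, grouped by role; filled points passed an adjusted p under 0.05 and open points did not. The 31 filled points all lie to the right of 0, and Adm, Car9, Egln3 and Epas1 lie farthest from it.

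Total expected counts lay between 20239626 and 23539911 in the M-LPS-EV libraries and between 22274687 and 25712667 in the M-EV libraries. The groups separated along principal component 1, which held 60.4% of the variance, and no library stood apart from its group. The chondrocyte label was matched by 10 cartilage markers, whose TPM, a level scaled to transcript length and library size, summed to 43962 to 44972 with M-LPS-EV and 53314 to 53857 with M-EV, with 9 of 10 called lower. In bulk RNA fewer cells of a type and less RNA per cell cannot be told apart. Of 12 macrophage markers 8 were tested, 4 were higher and none lower, at a summed 45.3 to 50.8 TPM with M-LPS-EV and 36.2 to 39.4 TPM with M-EV. Of 7 fibroblast markers 2 were higher and 3 lower, at a summed 1223 to 1253 TPM with M-LPS-EV and 1106 to 1116 TPM with M-EV. Markers of muscle, of which 4 of 5 were tested and none called, summed to 12.7 to 16.2 TPM with M-LPS-EV and 13.03 to 16.5 TPM with M-EV. Markers of neurons, endothelium and erythroid cells stayed under 5 TPM in every library, with Snap25, Hbb-bs and Hbb-bt at 0 in all, and of 3 osteoblast markers 1 was higher, at a summed 18.8 to 23.75 TPM with M-LPS-EV and 17.0 to 23.3 TPM with M-EV. The part of these cell types in the results below was not tested.

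Glucose enters chondrocytes through facilitative transporters. Slc2a1 encodes GLUT1, the basal transporter of most cells, and was at 275, 266 and 278 TPM in the M-LPS-EV libraries, against 208, 202.2 and 210.3 TPM in the M-EV libraries. The groups did not overlap, and the log2 fold change was 0.43 (edgeR: SE 0.02, adjusted p = 5.5e-15). Slc2a3, which encodes the high-affinity transporter GLUT3, had far lower levels of 2.12, 2.00 and 1.5 TPM with M-LPS-EV and 1.10, 1.08 and 1.34 TPM with M-EV. It rose by 0.88 on the log2 scale (edgeR: SE 0.17, adjusted p = 2.4e-04), but with limma on log2(TPM + 1) the adjusted p was 0.053. GLUT1 accounted for 99.3% ± 0.126 of the TPM of the pair with M-LPS-EV and 99.4% ± 0.0608 with M-EV (SD, n = 3 each).

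Hexokinases trap glucose in the cell by phosphorylating it. Hk1, the constitutive hexokinase of most tissues, had 82.1, 85.2 and 84.0 TPM with M-LPS-EV and 57.8, 55.9 and 51.5 TPM with M-EV, groups that lay well apart. Its log2 fold change was 0.63 (edgeR: SE 0.03, adjusted p = 1.1e-14). Hk2, the inducible hexokinase and a known HIF target, had 73.5, 78.1 and 72.9 TPM with M-LPS-EV and 67.7, 57.6 and 64.6 TPM with M-EV. It rose by 0.17 on the log2 scale (edgeR: SE 0.03, adjusted p = 3.1e-05), and was not called against a change of at least 1.2-fold. Hk2-202, of 594 bases and annotated as a processed transcript, held 32.5% of the TPM of Hk2. Hk2 made up a smaller part of the pair, 47.2% ± 0.676 of its TPM with M-LPS-EV and 53.45% ± 2.50 with M-EV (SD, n = 3 each). In exact permutation tests of 3 libraries against 3 the smallest two-sided p is 0.1, which this share reached (0.183 after adjustment over 11 shares). Gpi1, the isomerase of the next step, rose by 0.61 on the log2 scale (SE 0.02), with 406 to 437 TPM with M-LPS-EV and 285 to 295 TPM with M-EV.

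Phosphofructokinase catalyses the committed step and is built from 3 kinds of subunit. The liver-type gene Pfkl supplied most of the RNA, with 208, 197 and 210.1 TPM with M-LPS-EV and 157, 145 and 150.0 TPM with M-EV. The platelet-type gene Pfkp had 82.1, 77.4 and 78.4 TPM with M-LPS-EV and 49.99, 50.9 and 49.2 TPM with M-EV. The groups were apart for both genes, with log2 fold changes of 0.46 for Pfkl (edgeR: SE 0.02, adjusted p = 8.0e-15) and 0.64 for Pfkp (edgeR: SE 0.03, adjusted p = 1.7e-14). The muscle-type gene Pfkm had 33.4, 34.3 and 35.2 TPM with M-LPS-EV and 33.4, 34.2 and 33.9 TPM with M-EV, and the groups overlapped (log2 fold change 0.03, edgeR SE 0.04 and adjusted p 0.67). Shares of subunit RNA were apart between the groups for Pfkp and Pfkm. Pfkp took 24.9% ± 0.590 of the TPM of the 3 genes with M-LPS-EV and 21.3% ± 0.691 with M-EV, and Pfkm took 10.8% ± 0.415 with M-LPS-EV and 14.4% ± 0.501 with M-EV (SD, n = 3 each; exact permutation p = 0.1 for each share, 0.183 adjusted). Pfkl kept 64.35% ± 0.541 with M-LPS-EV and 64.25% ± 1.15 with M-EV. Pfkm overlaps Senp1, and Pfkp overlaps Pitrm1, on the other strand. The strand setting of the counting is not given in the sources used here, so reads of these partners may be mixed.

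Phosphofructokinase is driven by fructose 2,6-bisphosphate, which the PFKFB enzymes make and remove. Pfkfb3, whose enzyme strongly favours making it, had 84.15, 87.9 and 80.4 TPM with M-LPS-EV and 48.7, 49.5 and 49.4 TPM with M-EV. It rose by 0.79 on the log2 scale (edgeR: SE 0.03, adjusted p = 6.8e-17), the largest rise among the genes of the preparatory steps in this test. Pfkfb4, a related gene that is also known to be induced by hypoxia, stayed at 4.43, 3.12 and 3.79 TPM with M-LPS-EV and 2.58, 3.44 and 3.17 TPM with M-EV. Those groups overlapped, and its log2 fold change of 0.01 (edgeR: SE 0.14, adjusted p = 0.96) changed sign with the setting. The share of Pfkfb3 in the pair ranged from 95.0% to 96.6% with M-LPS-EV and from 93.5% to 94.97% with M-EV, groups that all but touched (exact permutation p = 0.1, 0.183 adjusted).

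Aldolase and triosephosphate isomerase complete the preparatory phase. Aldoa, the main aldolase gene here, had 1464, 1473 and 1421 TPM with M-LPS-EV and 1128, 1108 and 1111 TPM with M-EV, without overlap (log2 fold change 0.39, edgeR SE 0.02 and adjusted p 4.6e-15). Aldoc, the brain-type aldolase gene, had 12.4, 9.08 and 10.9 TPM with M-LPS-EV and 10.1, 8.91 and 7.92 TPM with M-EV, and the groups overlapped. Its log2 fold change was 0.25 (edgeR: SE 0.11, adjusted p = 0.076), and it was called with M-LPS-EV replicate 2 left out (edgeR: 0.33, adjusted p = 0.034) or M-EV replicate 1 left out (edgeR: 0.37, adjusted p = 0.014). Tpi1, which interconverts the triose phosphates, had 1317, 1317 and 1274 TPM with M-LPS-EV and 831, 822 and 821 TPM with M-EV, a log2 fold change of 0.67 (edgeR: SE 0.02, adjusted p = 8.2e-20).

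**Figure D2:**
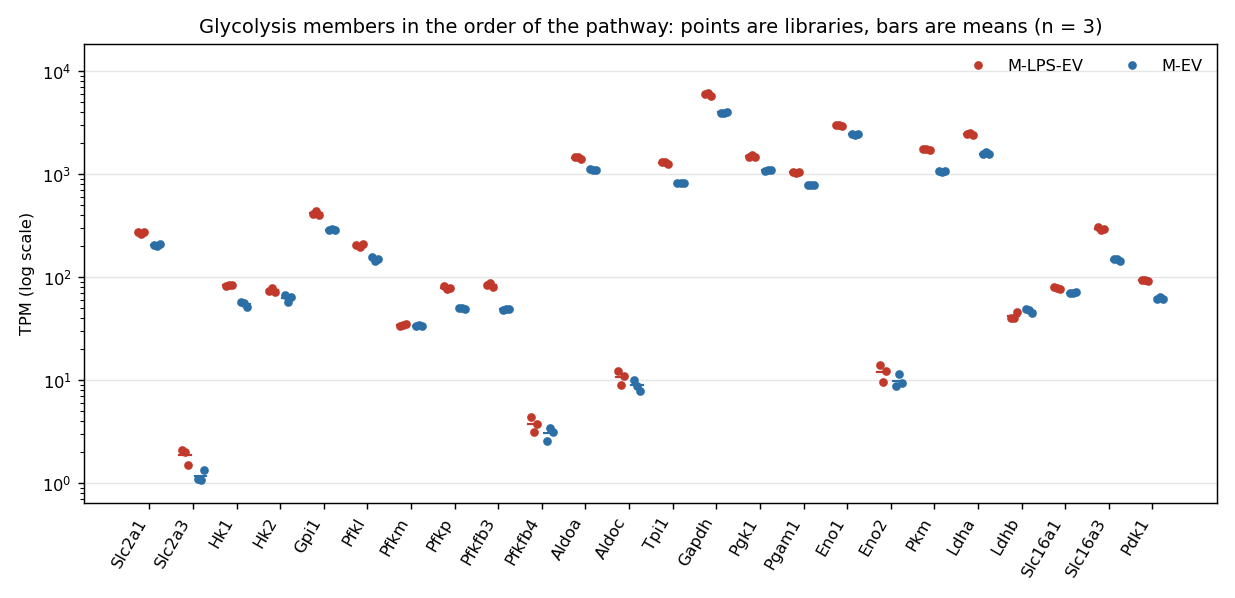
Level of the 24 glycolysis genes in TPM on a log scale, in the order of the pathway from uptake to pyruvate dehydrogenase kinase, with the M-LPS-EV libraries left of the M-EV libraries for each gene. Points are libraries and bars are means of 3. Gapdh stands highest, at 5721 to 6146 TPM with M-LPS-EV, and the genes whose groups overlap are mostly the low ones.

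The payoff phase held the most abundant RNAs of the pathway. Gapdh (ENSMUSG00000057666, chromosome 6 from 125161715 to 125166467 in mm10), the dehydrogenase that feeds electrons to NAD and a gene often used as a loading control, had 5972, 6146 and 5721 TPM with M-LPS-EV and 3977, 3983 and 4024 TPM with M-EV. The lowest M-LPS-EV library stood far above the highest M-EV library, and the log2 fold change was 0.58 (edgeR: SE 0.02, adjusted p = 6.5e-19), or 1.49-fold. Pgk1, which makes the first ATP of the payoff phase, had 1484, 1529.5 and 1482 TPM with M-LPS-EV and 1086, 1093 and 1107 TPM with M-EV (log2 fold change 0.47, SE 0.02). Pgam1, the next mutase, rose by 0.42 (SE 0.02), with 1035 to 1063 TPM with M-LPS-EV and 785 to 791 TPM with M-EV. Their groups did not overlap. For Pgam1 the copies recognised by their symbols held 1.40% of its count, and sequences were not compared.

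The enolase step had the lowest ratio of summed TPM among the 15 steps, 1.22. Eno1, the ubiquitous enolase gene, had 3008, 3010.4 and 2941 TPM with M-LPS-EV and 2462, 2424 and 2443 TPM with M-EV (log2 fold change 0.30, edgeR SE 0.02 and adjusted p 3.2e-14). Eno2, the neuronal enolase gene, had 14.0, 9.55 and 12.4 TPM with M-LPS-EV and 8.87, 11.5 and 9.45 TPM with M-EV, and the groups overlapped. Its log2 fold change was -0.08 from counts (edgeR: SE 0.09, adjusted p = 0.56) and 0.27 with transcript lengths as an offset (edgeR adjusted p = 0.25), so no direction is given.

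Pyruvate kinase makes the last ATP of the pathway. Pkm (ENSMUSG00000032294, chromosome 9 from 59656368 to 59679375 in mm10) had 1749, 1763 and 1726 TPM with M-LPS-EV and 1072, 1057 and 1068 TPM with M-EV. The groups were far apart, and its log2 fold change of 0.73 (SE 0.02, 1.65-fold) had the smallest adjusted p of the 37 genes, 9.1e-22 in edgeR. The gene makes an M1 and an M2 form by including 1 of 2 mutually exclusive exons. The M1 form is typical of muscle and brain, and the M2 form of proliferating and many other cells. The M1 exon lies upstream at chr9:59675029-59675195 and belongs to transcript Pkm-202, and the M2 exon lies downstream at chr9:59675568-59675734 and belongs to Pkm-201. Both are 167 bases long on the plus strand and differ at 64 bases. Reads over these bases can tell the exons apart, and the ends of the transcripts were not compared. The differing bases are in capitals in the sequences from GENCODE M21 transcripts (GRCm38, which is mm10) below, 5′ to 3′.
Pkm-202: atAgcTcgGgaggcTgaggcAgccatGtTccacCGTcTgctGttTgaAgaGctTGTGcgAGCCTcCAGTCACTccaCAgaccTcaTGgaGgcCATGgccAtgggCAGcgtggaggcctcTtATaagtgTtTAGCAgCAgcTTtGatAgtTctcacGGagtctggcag
Pkm-201: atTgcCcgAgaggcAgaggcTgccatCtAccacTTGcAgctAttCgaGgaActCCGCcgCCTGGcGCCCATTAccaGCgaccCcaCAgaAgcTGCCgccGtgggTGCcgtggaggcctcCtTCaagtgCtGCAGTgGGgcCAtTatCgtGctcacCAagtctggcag
Most Pkm RNA was of the M2 form, and both forms were higher with M-LPS-EV. Pkm-201 had 1502, 1479.7 and 1451 TPM with M-LPS-EV and 915, 895 and 903 TPM with M-EV, a log2 fold change of 0.72 (edgeR SE 0.02 and adjusted p 1.3e-05 over 37245 transcripts). Pkm-202 had 178, 219.6 and 214 TPM with M-LPS-EV and 117, 115.5 and 127 TPM with M-EV, a log2 fold change of 0.79 (edgeR: SE 0.09, adjusted p = 0.0061). The M1 form made up 10.6%, 12.9% and 12.9% of both with M-LPS-EV and 11.3%, 11.4% and 12.3% with M-EV. The groups overlapped, with means of 12.1% ± 1.33 with M-LPS-EV and 11.7% ± 0.528 with M-EV (SD, n = 3 each; exact permutation p = 0.8). At this precision no difference in exon use was detectable. Of 7 genes known to steer this exon choice, 2 were higher and 1 lower. The kinase gene Nek2 had a log2 fold change of 0.21 (SE 0.05), the splicing repressor gene Hnrnpa1 0.07 (SE 0.02) and the splicing factor gene Rbm4 -0.20 (SE 0.04), while Myc at 0.08 (SE 0.03) was not called (edgeR adjusted p = 0.066), except without M-LPS-EV replicate 1 (0.0995, edgeR adjusted p = 0.048). The groups overlapped for Hnrnpa1, and its call ended under 9 alternatives, among them upper-quartile scaling (edgeR adjusted p = 0.068), length offsets (edgeR adjusted p = 0.069), both TPM scales and 4 of the 6 libraries left out, which were M-LPS-EV replicates 2 and 3 and M-EV replicates 1 and 3 (0.0547 to 0.0638, edgeR adjusted p = 0.057 to 0.13). Neither Nek2 nor Rbm4 was called against 1.2-fold.

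Pyruvate becomes lactate through lactate dehydrogenase and leaves through proton-coupled transporters. Ldha, whose subunit favours lactate formation, had 2481, 2495 and 2412 TPM with M-LPS-EV and 1580.4, 1634 and 1564 TPM with M-EV, well apart, with a log2 fold change of 0.64 (edgeR: SE 0.02, adjusted p = 2.5e-19). Ldhb, whose subunit favours the reverse reaction, had 40.5, 40.15 and 46.0 TPM with M-LPS-EV and 48.8, 47.9 and 44.6 TPM with M-EV. Its groups overlapped and it was not called (log2 fold change -0.14, edgeR SE 0.06 and adjusted p 0.064). It was called lower with M-LPS-EV replicate 3 left out (edgeR: -0.20, adjusted p = 0.010) or M-EV replicate 3 left out (edgeR: -0.18, adjusted p = 0.025), with upper-quartile scaling and with no count filter. Ldha held 98.3% ± 0.161 of the TPM of the pair with M-LPS-EV and 97.1% ± 0.111 with M-EV (SD, n = 3 each; exact permutation p = 0.1, 0.183 adjusted).

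Slc16a3 (ENSMUSG00000025161, chromosome 11 from 120948480 to 120960868 in mm10) encodes MCT4, the low-affinity lactate exporter of glycolytic cells. It had 306, 291 and 295 TPM with M-LPS-EV and 150.1, 149 and 144 TPM with M-EV, and the groups lay far apart. The log2 fold change of 1.03 (2.04-fold, edgeR SE 0.03 and adjusted p 1.1e-20) was the largest of the 24 glycolysis genes. Slc16a1, which encodes the widely expressed transporter MCT1, had 81.2, 79.3 and 77.9 TPM with M-LPS-EV and 71.0, 70.0 and 71.5 TPM with M-EV. That is a rise of 0.18 on the log2 scale (edgeR: SE 0.03, adjusted p = 4.1e-06), without overlap but not called against a change of at least 1.2-fold. MCT4 took 78.9% ± 0.293 of the TPM of both transporters with M-LPS-EV and 67.6% ± 0.695 with M-EV (SD, n = 3 each; exact permutation p = 0.1, 0.183 adjusted), the widest difference among the 11 shares. Bsg, the chaperone that carries both transporters to the membrane, rose by 0.43 on the log2 scale (SE 0.02), with 1419 to 1456 TPM with M-LPS-EV and 1061 to 1088 TPM with M-EV.

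Pdk1, the kinase that blocks entry of pyruvate into mitochondria by switching off pyruvate dehydrogenase, had 93.9, 93.8 and 92.7 TPM with M-LPS-EV and 62.2, 65.1 and 61.0 TPM with M-EV. The groups did not overlap, and the log2 fold change was 0.61 (edgeR: SE 0.03, adjusted p = 2.8e-15).

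**Figure D3:**
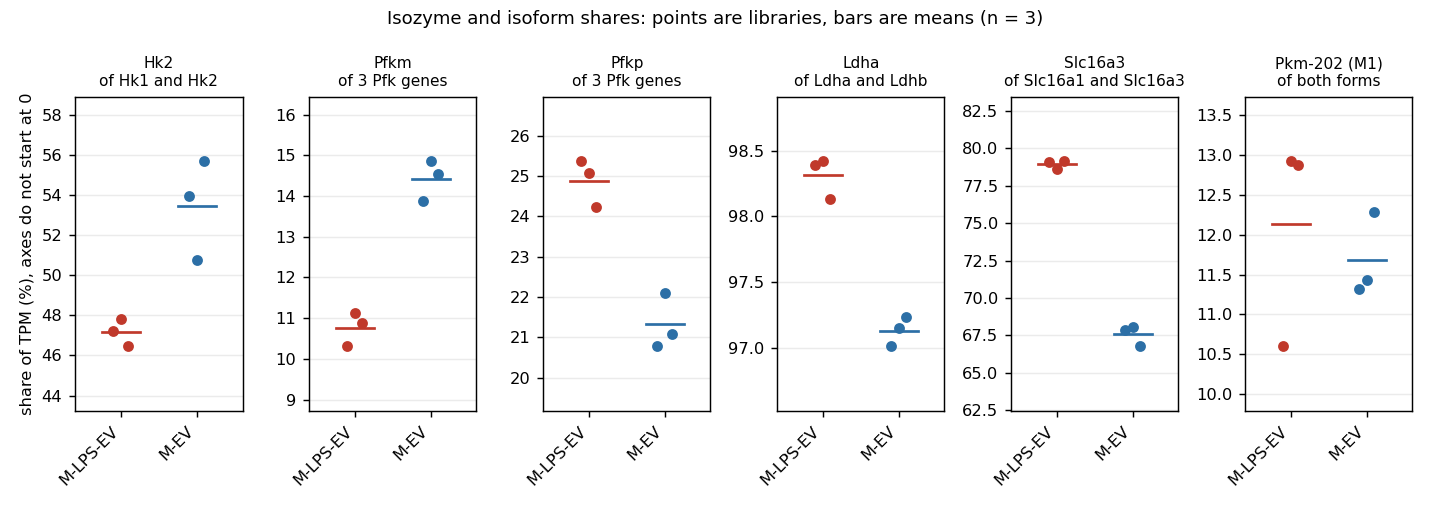
Share of TPM in percent of 1 gene or transcript among the alternatives of its step, M-LPS-EV left of M-EV in each panel, with libraries as points and means of 3 as bars; the axes do not start at 0. Slc16a3 had the widest difference, with 78.9% of the pair with M-LPS-EV and 67.6% with M-EV, and the Pkm M1 share overlapped between the groups.

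Summed over the pathway, the 24 glycolysis genes held 20345, 20561 and 19806 TPM with M-LPS-EV and 14188, 14153 and 14168 TPM with M-EV. This was 2.02% ± 0.0389 of all TPM with M-LPS-EV and 1.42% ± 0.00175 with M-EV (SD, n = 3 each), a ratio of 1.43 (exact permutation p = 0.1, the smallest that 3 against 3 allows). All 15 steps of uptake, glycolysis and lactate or pyruvate handling had a higher sum in every M-LPS-EV library than in any M-EV library. Of all single genes tested, 21.5% were apart in this way in CPM, and no such share was computed for sums. Several steps hold only 1 gene or are almost all of 1 gene, so these sums repeat the gene results above. The ratios of the steps ran between 1.22 for enolase and 1.73 for monocarboxylate transport. They were 1.68 for control by fructose 2,6-bisphosphate, 1.64 for pyruvate kinase and 1.58 for triosephosphate isomerase. The steps with no redundant gene in the list (Gpi1, Tpi1, Gapdh, Pgk1, Pgam1, Pkm) all rose. At the steps with several genes, the ones that did not pass the test were Pfkm, Pfkfb4, Aldoc, Eno2 and Ldhb, each with fewer TPM than the other genes of its step.

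All 5 HIF regulators chosen here were higher, where 16.4% of all tested genes were. They are not the whole oxygen-sensing machinery, and 12 other genes of the HIF pathway list are described below. Of those 12, 3 were higher, 1 was lower and 8 were not called, Arnt and Egln2 among the 8. The 5 regulators and the 8 targets summed to 1700.2, 1668.5 and 1648.9 TPM with M-LPS-EV and 1100.4, 1091.6 and 1086.1 TPM with M-EV. The ratio was 1.53 (exact permutation p = 0.1, the smallest possible). Hif1a, which encodes the HIF-1α subunit that is regulated mainly at the protein level, had 327, 331 and 346 TPM with M-LPS-EV and 295, 289 and 289 TPM with M-EV. Its rise of 0.23 on the log2 scale (edgeR: SE 0.02, adjusted p = 3.3e-09) was without overlap but not called against 1.2-fold. Epas1 (ENSMUSG00000024140, chromosome 17 from 86753700 to 86833410 in mm10) encodes HIF-2α, which in mice is known to drive catabolic genes in osteoarthritic cartilage. It had 14.2, 12.7 and 11.2 TPM with M-LPS-EV and 4.38, 6.61 and 4.46 TPM with M-EV, clearly apart, with a log2 fold change of 1.36 (2.56-fold, edgeR SE 0.06 and adjusted p 1.0e-15). Epas1 RNA was far below Hif1a RNA in every library on the TPM scale.

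The 3 genes of the list that take HIF away are themselves in part HIF targets. Egln1, which encodes PHD2, the main oxygen-dependent prolyl hydroxylase, had 95.55, 96.2 and 96.1 TPM with M-LPS-EV and 51.25, 51.9 and 49.4 TPM with M-EV (log2 fold change 0.93, edgeR SE 0.03 and adjusted p 9.8e-19). Egln3, which encodes PHD3, a strongly HIF-induced relative, had 18.9, 17.1 and 16.2 TPM with M-LPS-EV and 5.53, 4.98 and 5.84 TPM with M-EV. It rose by 1.68 on the log2 scale (3.21-fold, edgeR SE 0.08 and adjusted p 3.6e-15), and no libraries overlapped for either gene. Vhl, the subunit of the ubiquitin ligase that recognises hydroxylated HIF, rose by 0.27 (edgeR: SE 0.04, adjusted p = 7.0e-06), with 34.5, 30.6 and 32.9 TPM with M-LPS-EV and 25.7, 25.2 and 28.2 TPM with M-EV, and was not called against 1.2-fold.

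Among the hypoxia targets 7 of 8 were higher. Adm (ENSMUSG00000030790, chromosome 7 from 110627661 to 110629820 in mm10), which encodes the vasodilator peptide adrenomedullin, had 26.6, 28.3 and 23.8 TPM with M-LPS-EV and 7.74, 5.59 and 5.88 TPM with M-EV. Its log2 fold change of 2.08 (4.22-fold, edgeR SE 0.10 and adjusted p 1.3e-14) was the largest of all 37 genes. Car9 (ENSMUSG00000028463, chromosome 4 from 43506966 to 43513729 in mm10), the cell-surface carbonic anhydrase IX that handles acid outside the cell, had 97.85, 91.4 and 85.4 TPM with M-LPS-EV and 29.7, 30.5 and 24.2 TPM with M-EV (log2 fold change 1.76, 3.40-fold, edgeR SE 0.05 and adjusted p 2.1e-19). Both genes were several times as high in each M-LPS-EV library as in the M-EV libraries. Car12, a second cell-surface carbonic anhydrase, rose by 0.37 (SE 0.04), with 27.4 to 28.4 TPM with M-LPS-EV and 21.0 to 22.9 TPM with M-EV.

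Bnip3 and Bnip3l encode related mitochondrial proteins that mark mitochondria for removal by autophagy. Bnip3 had 597.5, 581 and 587 TPM with M-LPS-EV and 365, 362 and 368 TPM with M-EV (log2 fold change 0.72, edgeR SE 0.02 and adjusted p 7.3e-19). Bnip3l had 259, 239 and 229 TPM with M-LPS-EV and 138, 135 and 132 TPM with M-EV (log2 fold change 0.93, edgeR SE 0.03 and adjusted p 1.5e-18). Both genes kept the groups apart. A copy of Bnip3l recognised by its symbol held 1.06% of its count. The coding transcript Bnip3l-201 held 34.3% of the gene's TPM, with means of 85.1 TPM with M-LPS-EV and 44.6 TPM with M-EV. Bnip3l-204 and Bnip3l-205, of 354 and 789 bases and annotated as processed transcripts, held 30.8% and 34.5%.

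Ndrg1, a stress-responsive gene of differentiation, rose by 0.35 (SE 0.03), with 163 to 176 TPM with M-LPS-EV and 131 to 133 TPM with M-EV. Kdm3a, an oxygen-dependent histone demethylase that removes repressive H3K9 methylation, rose by 0.44 (edgeR: SE 0.06, adjusted p = 1.2e-06), with 26.95, 31.2 and 25.98 TPM with M-LPS-EV and 19.7, 21.0 and 19.98 TPM with M-EV. Ankrd37, a small ankyrin-repeat protein gene, had 5.59, 5.69 and 4.69 TPM with M-LPS-EV and 3.70, 6.43 and 4.64 TPM with M-EV, which overlap. It was the 1 target not called (log2 fold change 0.47, edgeR SE 0.23 and adjusted p 0.12), with 126 counts over the M-LPS-EV libraries and 97 over the M-EV libraries. Ankrd37 shares bases with the more highly counted Ufsp2 and with Lrp2bp on the other strand, so its value is uncertain.

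**Figure D4:**
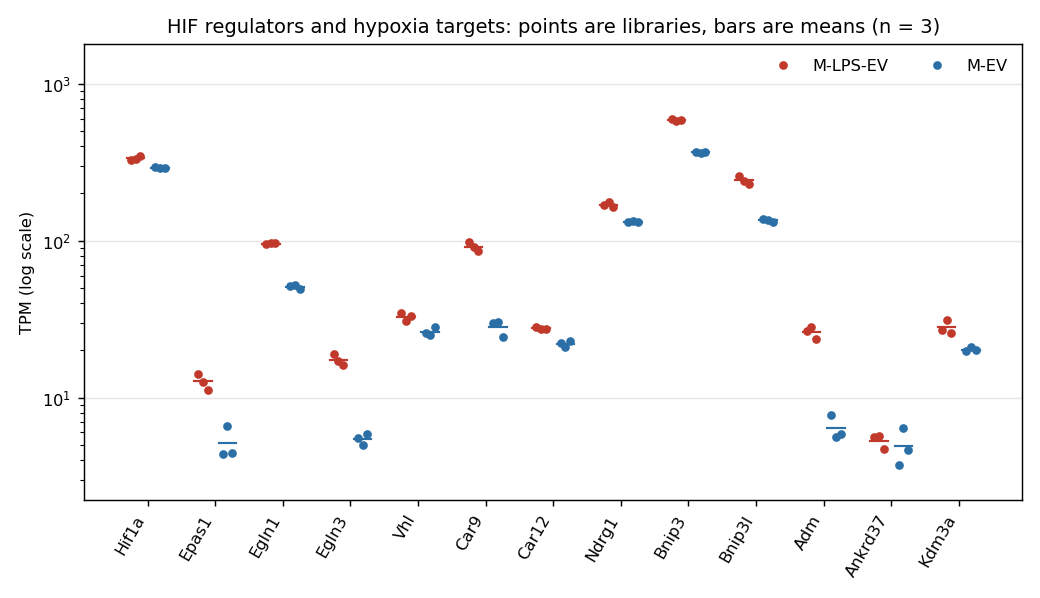
Level of the 5 HIF regulators and 8 hypoxia targets in TPM on a log scale, with the M-LPS-EV libraries left of the M-EV libraries for each gene; points are libraries and bars are means of 3. The groups are apart for every gene except Ankrd37, and the gap is widest for Adm, with 23.8 to 28.3 TPM with M-LPS-EV and 5.59 to 7.74 TPM with M-EV.

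At the transcript level 142 of the 298 annotated transcripts of these genes could be tested, and 44, from 29 genes, were called higher and none lower, where 2.45% of all 37245 tested transcripts were higher and 2.00% lower. Of the 59 that held at least 10% of their gene's TPM, 36 were higher. The share over all transcripts under that filter was not computed, so this count cannot be set beside the 2.45%. Transcripts of 1 gene share its reads, and the uncertainty of dividing reads between them is not part of these tests. Hk1-202 had 58.0, 55.0 and 60.1 TPM with M-LPS-EV and 34.9, 33.0 and 37.2 TPM with M-EV (log2 fold change 0.73, edgeR SE 0.05 and adjusted p 0.0012), while Hk1-201 overlapped between the groups (0.34, edgeR SE 0.19 and adjusted p 0.51). Slc2a1-201, the coding GLUT1 transcript, rose by 0.48 (edgeR: SE 0.03, adjusted p = 7.1e-04), and Slc2a1-204, annotated as a target of nonsense-mediated decay, was not called (0.23, edgeR SE 0.13 and adjusted p 0.52). The difference between transcripts of a gene was not tested. All 3 Slc16a3 transcripts with at least 10% of the gene rose, by 1.005 for Slc16a3-201 (SE 0.04), 1.19 for Slc16a3-202 (SE 0.13) and 1.07 for Slc16a3-207 (SE 0.05).

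Start sites were compared in RefSeq windows of 250 bases before to 50 bases after each annotated start (GRCm38.p6), which exist for 33 of the 37 genes in 48 windows. HIF recognises a short core, ACGTG or GCGTG, at hypoxia response elements. Searched on both strands, ACGTG stood in 47.9% of the 48 windows, 25.2% of the windows of all tested genes and 19.6% of all 32851 windows, and GCGTG in 52.1%, 49.9% and 32.4% of the same sets. CACGTG, the palindrome that contains ACGTG on both strands and is also read by E-box factors such as MYC, stood in 12.5%, 9.9% and 7.2%. ACGTG was in a window of 17 of the 27 genes called higher that have one, and of 3 of the 6 genes not called. These counts are of genes with the motif in any window and cannot be set beside the shares of windows. The same share over all tested genes was not computed. A match of these letters is a description and not a binding site. The 37 genes include genes chosen as HIF targets, so their motif shares reflect that choice and say nothing about these libraries. Some windows of the same gene overlap, so some bases were counted more than once. The 5 windows below belong to 2 genes of lactate handling and to Egln3, Car9 and Adm, the 3 genes with the largest rises. They were chosen with their motifs known and are no sample of the 48, and their capitals mark ACGTG or GCGTG on either strand. They are Slc16a3 at chr11:120948817-120949116 on the plus strand, Ldha at chr7:46845554-46845853 on the plus strand, Egln3 at chr12:54203825-54204124 on the minus strand, Car9 at chr4:43506776-43507075 on the plus strand and Adm at chr7:110627407-110627706 on the plus strand, each 5′ to 3′.
Slc16a3: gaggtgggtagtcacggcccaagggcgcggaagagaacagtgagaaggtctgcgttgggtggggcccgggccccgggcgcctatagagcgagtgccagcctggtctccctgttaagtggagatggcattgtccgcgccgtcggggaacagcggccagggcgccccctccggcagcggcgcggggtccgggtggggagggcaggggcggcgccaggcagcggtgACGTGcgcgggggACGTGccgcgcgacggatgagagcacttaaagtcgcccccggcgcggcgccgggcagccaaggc
Ldha: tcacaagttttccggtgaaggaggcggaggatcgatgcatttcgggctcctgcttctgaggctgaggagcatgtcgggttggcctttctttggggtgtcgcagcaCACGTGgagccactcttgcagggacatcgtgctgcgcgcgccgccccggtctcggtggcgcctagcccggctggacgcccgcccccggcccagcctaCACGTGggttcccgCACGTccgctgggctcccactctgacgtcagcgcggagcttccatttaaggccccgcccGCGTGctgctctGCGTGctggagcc
Egln3: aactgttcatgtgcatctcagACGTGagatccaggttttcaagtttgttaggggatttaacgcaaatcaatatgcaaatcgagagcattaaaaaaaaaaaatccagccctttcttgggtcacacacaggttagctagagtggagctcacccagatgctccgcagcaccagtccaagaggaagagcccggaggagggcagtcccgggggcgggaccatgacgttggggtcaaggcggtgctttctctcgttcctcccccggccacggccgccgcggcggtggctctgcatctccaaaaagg
Car9: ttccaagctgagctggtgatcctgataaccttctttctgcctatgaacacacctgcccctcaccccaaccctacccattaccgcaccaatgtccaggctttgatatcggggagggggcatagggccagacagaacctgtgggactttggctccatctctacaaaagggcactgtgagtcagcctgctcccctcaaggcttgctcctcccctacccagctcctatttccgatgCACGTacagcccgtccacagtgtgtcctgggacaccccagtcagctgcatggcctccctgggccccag
Adm: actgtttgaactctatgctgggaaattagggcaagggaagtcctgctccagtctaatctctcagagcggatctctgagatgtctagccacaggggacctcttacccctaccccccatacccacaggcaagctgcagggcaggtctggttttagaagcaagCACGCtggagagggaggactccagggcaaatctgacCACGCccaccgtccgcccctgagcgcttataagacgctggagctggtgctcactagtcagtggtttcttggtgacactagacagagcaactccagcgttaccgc
The Slc16a3 window holds 2 ACGTG on the same strand, and its gene had 291 to 306 TPM with M-LPS-EV and 144 to 150.1 TPM with M-EV. The Ldha window, the one of its 2 windows with more ACGTG, holds 5 ACGTG matches counted over both strands, and 2 GCGTG. Each of its 2 CACGTG is counted once on each strand, so the separate sites are fewer than the matches. Egln3 and Car9 have 1 ACGTG each. Adm, with the largest rise of the 37 genes, has 2 GCGTG and no ACGTG, and Tpi1 and Gpi1, which also rose, have none of these motifs in their windows.

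The genes around the pathway are described by list, as in the plot of fold changes by list, beside the 16.4% of all tested genes called higher and the 15.2% called lower. All these lists were chosen with earlier results of these data known, so their counts are description and no independent support. The lists of other glycolysis, pyruvate entry and citric acid cycle genes are short, and nothing is read from their shares. Of 29 other glycolysis and gluconeogenesis genes 19 were tested, with 3 higher, 4 lower and a median log2 fold change of -0.003. Pgm1, which links glycogen to glycolysis, rose by 0.57 (SE 0.02), with 205 to 208 TPM with M-LPS-EV and 139 to 144 TPM with M-EV. The muscle enolase gene Eno3 fell by 0.54 (SE 0.09), with 13.5 to 15.2 TPM with M-LPS-EV and 19.2 to 22.1 TPM with M-EV, and the transporter gene Slc2a10 fell by 0.38 (SE 0.05) but was not called against 1.2-fold. Of 14 genes of pyruvate entry to mitochondria 3 were higher and 4 lower (median -0.052). Pcx, pyruvate carboxylase, rose by 0.61 (SE 0.04) and the kinase Pdk3 by 0.23 (SE 0.04), while the pyruvate carrier subunit Mpc2 fell by 0.25 (SE 0.05) and the dehydrogenase subunit Dld by 0.11 (SE 0.03). Of these 4 only Pcx was called against 1.2-fold. The Dld call ended with length offsets (edgeR adjusted p = 0.096), on both TPM scales, and without M-LPS-EV replicate 2 (-0.09, edgeR adjusted p = 0.061) or M-EV replicate 1 (-0.10, edgeR adjusted p = 0.060).

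Of 16 citric acid cycle genes none was higher and 3 were lower (median log2 fold change -0.047). Sdhb, a subunit of succinate dehydrogenase, had 152, 141 and 143 TPM with M-LPS-EV and 172, 174 and 173 TPM with M-EV, a log2 fold change of -0.24 (edgeR: SE 0.04, adjusted p = 7.4e-06). The groups did not overlap. Idh3a, of isocitrate dehydrogenase, fell by 0.17 (SE 0.04) and the malate dehydrogenase gene Mdh2 fell by 0.105 (SE 0.03). None of the 3 was called against a change of at least 1.2-fold. Of 8 pentose phosphate pathway genes 4 were higher and 1 lower (median 0.099), with Pgd, the pathway's second NADPH-making dehydrogenase, at 0.36 (SE 0.03), the transketolase gene Tkt at 0.10 (SE 0.02), H6pd at 0.12 (SE 0.04) and the epimerase gene Rpe at -0.16 (SE 0.05). Of these only the Pgd call held under all alternatives. Rpe was at -0.04 with length offsets (edgeR adjusted p = 0.80), was not called on either TPM scale, and lost its call without M-LPS-EV replicate 1 (-0.15, edgeR adjusted p = 0.051), M-LPS-EV replicate 2 (-0.12, edgeR adjusted p = 0.083) or M-EV replicate 1 (-0.13, edgeR adjusted p = 0.070). H6pd lost its call with length offsets (edgeR adjusted p = 0.14), on both TPM scales, and without M-LPS-EV replicate 1 (0.08, edgeR adjusted p = 0.12) or M-EV replicate 3 (0.10, edgeR adjusted p = 0.082). Tkt lost its call on both TPM scales (limma adjusted p = 0.067 on log2(TPM + 1)).

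Of 12 other genes of the HIF pathway list 3 were higher and 1 lower (median log2 fold change 0.014). The plot labels them other HIF pathway regulators, but P4ha1, P4ha2 and P4ha3 among them are collagen prolyl hydroxylase genes. The count and median are therefore not those of regulators alone. P4ha1 (log2 fold change 0.03, SE 0.02) and P4ha3 (-0.07, SE 0.05) were not called (edgeR adjusted p = 0.30 for each). Arnt, the constitutive partner of both HIF-α subunits, had 33.6 to 36.4 TPM with M-LPS-EV and 34.8 to 35.7 TPM with M-EV and was not called (edgeR adjusted p = 0.49), and neither was Egln2, which encodes the hydroxylase PHD1 (log2 fold change 0.08, edgeR SE 0.04 and adjusted p 0.12). Arnt, Egln2, P4ha1 and P4ha3 were named after their values were seen. P4ha2, a collagen prolyl hydroxylase known to be induced by HIF, rose by 0.61 (SE 0.02) and Arnt2 by 0.49 (SE 0.13), and the ligase scaffold Cul2 fell by 0.16 (SE 0.04). Of these only P4ha2 was called under all alternatives. The Arnt2 call ended with length offsets (edgeR adjusted p = 0.065), on both TPM scales, against 1.2-fold and without M-LPS-EV replicate 2 (0.36, edgeR adjusted p = 0.063). The Cul2 call ended with length offsets (edgeR adjusted p = 0.14), on both TPM scales and against 1.2-fold. Rbx1, the ring subunit of that ligase, was called at 0.10 (SE 0.04) from counts but not with several alternatives, and had -0.02 with transcript lengths as an offset. Of 34 other hypoxia-inducible genes 24 were higher and 1 lower, with a median of 0.374. Lox, the collagen crosslinking enzyme, had 84.0, 84.6 and 84.1 TPM with M-LPS-EV and 33.1, 31.15 and 34.7 TPM with M-EV, without overlap (log2 fold change 1.37, edgeR SE 0.03 and adjusted p 1.3e-21). The cytokine Mif rose by 0.67 (SE 0.03), and the mitochondrial proteins Fam162a by 0.69 (SE 0.03) and Higd1a by 0.58 (SE 0.03).

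**Figure D5:**
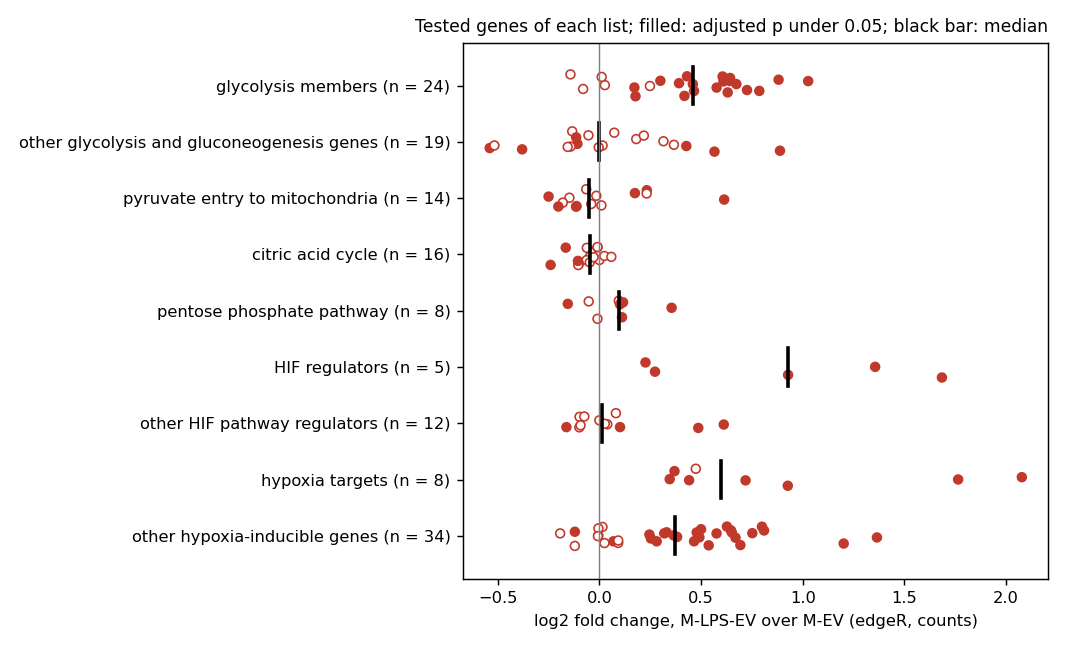
Log2 fold change of M-LPS-EV over M-EV for the tested genes of each list, filled where the adjusted p was under 0.05, with the list median as a black bar. The glycolysis genes (median 0.463), HIF regulators (0.928), hypoxia targets (0.597) and other hypoxia-inducible genes (0.374) lie mostly right of 0, and the citric acid cycle genes (-0.047) lie close to it.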

How the data were processed

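RNA of 6 libraries, 3 M-LPS-EV and 3 M-EV, was compared, with groups and replicate numbers taken from the sample titles. STAR, RSEM and DESeq2 were used with mm10, per the submitters' processing notes; their versions and settings, the annotation and the strand setting were not stated there. Each library has a table of transcripts. The authors deposited RSEM's expected count, which shares reads between transcripts and need not be whole. The TPM column that the authors deposited corrects for effective length and library size, and the deposited IsoPct column gives each transcript as a percent of its gene. The tables hold 142699 transcripts, of which 99.14% are in GENCODE M21 (GRCm38, mm10), the source of coordinates, 1-based, and symbols.

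Expected counts were summed per gene and rounded, filtered with filterByExpr (minimum count 10, minimum total 15), scaled by TMM and tested with edgeR 4.0.16 (glmQLFit and glmQLFTest, R 4.3.3), two-sided, with group as the only term and Benjamini-Hochberg adjustment over all genes, or over all transcripts for transcript tests. TPM were summed per gene to give levels. Shares and sums were compared with exact permutation tests over libraries (scipy 1.17.1). A change of at least 1.2-fold was tested with edgeR's glmTreat. The edgeR, limma-voom and DESeq2 fits were tried on simulated counts with the same variability beyond counting error for every gene. That setting is simpler than the data and does not show how the tests behave on these libraries. The 37 genes and all lists were chosen with earlier results of these data known. All 37 were to be named or counted, and of each other list up to 4 tested genes with the smallest p. Depth was 20239626 to 25712667 counts per library, and counting error is therefore small except for genes of few counts such as Ankrd37. Alternatives were scaling by RLE or by the upper quartile, testing genes without any filter or from a mean of 50 counts, offsets for effective length, DESeq2 1.42.0, limma-voom and limma-trend (limma 3.58.1) on log2(TPM + 1) and log2(TPM + 0.1), the replicate number as a block, and each library left out. Where a library was left out, the spread was pooled over both groups. Promoter windows came from RefSeq and Pkm exons from GENCODE transcripts. Figures were drawn with matplotlib 3.10.9.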

Additional observations from a re-analysis of the deposited data

How the results depend on the processing

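The number of the 24 glycolysis genes called higher was 19 with most alternatives, 18 on both TPM scales, 17 against a change of at least 1.2-fold, and 19 to 20 with a library left out. The number of the 13 HIF and hypoxia genes called higher was 12 throughout, except 10 against 1.2-fold, and none was called lower. The number of glycolysis genes called lower was 0, but 1 with upper-quartile scaling and with no count filter, and 0 to 1 with a library left out; that gene was Ldhb. Over all genes 4614 were called, against 2867 with length offsets, 2622 on log2(TPM + 1), 2619 on log2(TPM + 0.1) and 1137 against 1.2-fold, and 3978 to 4317 with a library left out. Of 1152 values of single genes and transcripts under alternatives, 1065 kept their direction and side of the threshold, 64 lost a call, 12 gained one and 11 changed sign, none of the last called before except Rbx1. The signs that changed were those of Pfkm (-0.005 without M-LPS-EV replicate 3, and -0.005 to 0.0511 over all libraries left out), Pfkfb4 (-0.0022 with upper-quartile scaling, and -0.055 to 0.1404 over libraries left out), Eno2 (0.27 with length offsets, 0.24 and 0.26 on log2(TPM + 1) and log2(TPM + 0.1)) and Rbx1 (-0.021, -0.033 and -0.0333 on the same scales). The differences of 3 overlapping shares, in percentage points, also changed sign with a library left out: Pfkl spanned -0.50 to 0.65, Aldoa -0.0048 to 0.109 and Eno1 -0.037 to 0.037, with -0.17 for Pfkl without M-LPS-EV replicate 3 and -0.028 for Eno1 without M-EV replicate 2. The causes were not tested. Another scaling moved the median log2 fold change of all genes by less than 0.1.

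With the replicate number as a block 4519 genes were called, and of the 37 genes the same numbers, 19 and 12, were higher; 33 of their transcripts were called in place of 44 (36 to 39 with a library left out, 50 with a mean count of at least 50). Same-numbered libraries did not deviate together (correlations of 0.028, -0.044 and -0.019), so the numbers are not taken to pair the samples.

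Depth limits mainly Slc2a3, Ankrd37 and Pfkfb4, which have the fewest counts.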

Other observations

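Among the macrophage markers, the complement genes C1qa and C1qb had too few counts for the test. C1qa had 2 counts over the M-LPS-EV libraries and 37 over the M-EV libraries, and C1qb had 5 over the M-LPS-EV libraries and 34 over the M-EV libraries. Adgre1, which encodes the macrophage surface protein F4/80, had 138 counts over the M-LPS-EV libraries and 52 over the M-EV libraries and was called higher (log2 fold change 1.503, SE 0.25, edgeR adjusted p = 4.3e-05). These 3 were named after their values were seen. Lyz2, the lysozyme gene that made up most of the summed macrophage markers, had 34.55 ± 3.09 TPM with M-LPS-EV and 24.35 ± 1.29 TPM with M-EV (SD, n = 3 each).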
